A study of Mus musculus with 12 samples.

Results

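Macrophages let potassium out of the cell when extracellular ATP opens the P2X7 receptor, and the fall of potassium inside the cell is a trigger for assembly of the NLRP3 inflammasome. Chloride efflux accompanies inflammasome assembly, and several chloride channel proteins have been linked to it. The transcripts described here are those of 10 ion channel genes tied to this step, chosen by gene symbol from the 55335 genes of the deposited table. All 10 were found and all 10 were among the 12622 genes tested. They are 5 potassium channel genes (Kcnk6, Kcnk13, Kcnn4, Kcna3 and Kcnj2), 4 chloride channel genes (Lrrc8a, Lrrc8c, Clic1 and Clic4) and the calcium-permeable cation channel gene Trpm2. mRNA levels say nothing of ion flux, which was not measured in these libraries.

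Bulk RNA sequencing covered bone marrow-derived macrophages (BMDMs), grown for 7 days from the marrow of 8-week-old C57BL/6 mice with macrophage colony-stimulating factor, in 4 groups with 3 libraries each. The groups were wild-type and Nlrp3-/- BMDMs, each without treatment (control) and after lipopolysaccharide followed by ATP (LPS+ATP). The sample labels put LPS at 4 hours and ATP at 30 minutes, whereas the methods of the study put LPS at 12 hours and 3 mM ATP at 2 hours, so the length of stimulation behind these values was not settled. The wild-type and Nlrp3-/- mice came from different suppliers, littermate controls are not mentioned, and neither the allele structure nor the number of mice behind a group was given in the sources used here. The labels do not say whether the replicates of a group were separate mice or cultures, so each p-value below measures only the spread among these libraries, which may be technical.

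Values are FPKM, meaning fragments counted on a gene per kilobase of its length and relative to the library total, and levels of different genes are compared only on this scale. In wild-type BMDMs, Nlrp3 itself was at 9.68 ± 0.425 FPKM (SD, n = 3) without and 32.9 ± 0.801 FPKM (SD, n = 3) with LPS+ATP, and it was listed at 0 in all 6 Nlrp3-/- libraries. All 8 macrophage markers were above 1 FPKM in every group, but by adjusted p alone 5 of the 8 were lower and 0 higher in Nlrp3-/- control BMDMs (among them Cd68 at -0.73, Csf1r at -0.62, Fcgr1 at -0.40 and Adgre1 at -0.36 on the log2 scale), and 4 were lower and 0 higher with LPS+ATP. The summed FPKM of 6 LPS response genes was 8.56 to 9.39 in wild-type control, 3367.5 to 3433.7 in wild-type LPS+ATP, 19.2 to 21.3 in Nlrp3-/- control and 2251.9 to 2273.5 in Nlrp3-/- LPS+ATP libraries. Low FPKM values move in steps whose size gives the depth of a library relative to the others, and it spanned 1.0 to 1.218. The genotypes also differed in other ways. Xist was at most 0.0416 FPKM in wild-type BMDMs and 32.8 FPKM or more in Nlrp3-/- BMDMs, whereas Uty, Kdm5d, Eif2s3y and Ddx3y on the Y chromosome were at 0 in the Nlrp3-/- BMDMs alone. Sex of the donors and genotype cannot be told apart. The 6 fibroblast markers, of which 5 were higher in Nlrp3-/- control BMDMs by the rule for calls given below, summed to 160.4 to 165.4 FPKM in wild-type control and 1181.5 to 1197.8 FPKM in Nlrp3-/- control libraries, and to 187.7 to 190.4 and 915.5 to 931.2 FPKM with LPS+ATP. The 8 granulocyte markers, of which all 7 tested were higher in Nlrp3-/- control BMDMs, summed to 250.9 to 284.6 and 1465.1 to 1509.3 FPKM in control, and to 312.4 to 324.1 and 633.5 to 639.2 FPKM with LPS+ATP. These sums do not follow each marker, since by adjusted p alone 6 of the 7 were lower and 1 higher with stimulation in each genotype. With LPS+ATP, 6 of the 7 were higher and 0 lower in Nlrp3-/- BMDMs by adjusted p alone. No marker of these 2 lists was at 0 in every library of a group. Of 5 erythroid markers, 3 were higher in Nlrp3-/- control BMDMs, with sums of 9.57 to 12.6 FPKM against 0.828 to 1.01 FPKM, and with LPS+ATP the sums were 4.22 to 5.11 and 1.38 to 2.38 FPKM. These 3, the globin genes Hba-a1, Hbb-bs and Hbb-bt, passed the filter on low values (1 FPKM in 3 libraries) only through the Nlrp3-/- libraries. The lymphocyte and dendritic cell lists stayed at or under 2.27 FPKM in sum, and 4 endothelial markers summed to 9.61 to 16.3 FPKM. Of these 4, Cdh5 (log2 fold change 1.30) and Pecam1 (1.14, or 0.97 after median-ratio scaling) were higher in Nlrp3-/- control BMDMs by the rule for calls, and Vwf had -0.62. In bulk RNA, fewer cells of a type and less RNA per cell cannot be told apart.

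The promoters of the members called with LPS+ATP in both genotypes are shown as sequence, because those genes moved in the same direction in both genotypes. The RefSeq promoter table (GRCm38.p6) matched 9 of the 10 members, and Kcnk6 had no entry. Each line gives bases upstream of the start of transcription, on the strand of the gene and outside annotated exons, with GAGGAA, the core bound by the macrophage factor PU.1, or its reverse complement TTCCTC in capitals. Kcna3 (chr3:107035912-107036161, plus strand), Lrrc8c (chr5:105519221-105519387, plus strand) and Clic4 (chr4:135272815-135273010, minus strand) are the genes that rose, and Kcnk13 (chr12:99964249-99964498, plus strand) and Kcnj2 (chr11:111065914-111066163, plus strand) are the genes that fell.
Kcna3: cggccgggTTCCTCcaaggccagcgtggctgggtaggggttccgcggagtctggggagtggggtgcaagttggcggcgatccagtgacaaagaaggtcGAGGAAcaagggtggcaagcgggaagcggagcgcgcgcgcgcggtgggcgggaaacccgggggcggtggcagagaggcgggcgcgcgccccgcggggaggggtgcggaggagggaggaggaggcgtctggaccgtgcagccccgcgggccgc
Lrrc8c: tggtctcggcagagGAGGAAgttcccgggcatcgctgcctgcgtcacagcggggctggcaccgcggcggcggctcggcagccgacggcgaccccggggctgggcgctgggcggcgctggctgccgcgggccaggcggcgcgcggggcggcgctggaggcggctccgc
Clic4: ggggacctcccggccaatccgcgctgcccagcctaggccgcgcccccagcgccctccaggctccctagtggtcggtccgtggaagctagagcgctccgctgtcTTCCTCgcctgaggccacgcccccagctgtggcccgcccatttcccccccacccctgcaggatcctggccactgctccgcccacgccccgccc
Kcnk13: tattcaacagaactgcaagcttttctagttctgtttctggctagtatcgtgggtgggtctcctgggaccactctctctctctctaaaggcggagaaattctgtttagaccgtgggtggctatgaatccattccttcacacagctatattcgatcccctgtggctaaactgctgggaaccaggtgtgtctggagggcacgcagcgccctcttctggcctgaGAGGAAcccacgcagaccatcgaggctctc
Kcnj2: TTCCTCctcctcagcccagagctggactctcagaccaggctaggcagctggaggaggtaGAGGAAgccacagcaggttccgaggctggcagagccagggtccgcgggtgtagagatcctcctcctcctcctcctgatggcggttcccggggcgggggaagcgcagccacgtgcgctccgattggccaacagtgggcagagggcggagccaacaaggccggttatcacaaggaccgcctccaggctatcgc

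Over the 250 bases before the RefSeq start of transcription, GC content was 74.4% in Kcna3, 78.4% in Lrrc8c and 73.2% in Clic4. It was 65.6% in Kcnj2 and 52.8% in Kcnk13. In the other windows it was 68.0% in Lrrc8a, 60.8% in Clic1, 58.8% in Kcnn4 and 56.8% in Trpm2. The median over all promoters of the table was 52.4%. In GENCODE M21, only 167 of the 250 bases of Lrrc8c and 196 each of Clic4 and Lrrc8a lie before the annotated gene. Most or all of the Clic1 and Trpm2 windows lie inside the annotated gene. Motifs were searched on both strands, namely NF-kB, TGANTCA (AP-1), TGACGTCA (CRE), the interferon response core and GAGGAA (PU.1 core). GAGGAA was found in the windows of Kcnk13, Kcna3, Kcnj2, Lrrc8c, Clic1 and Clic4, and it was found in 23.3% of 32851 promoters. TGACGTCA was found in the window of Lrrc8a (1.55% of promoters) and TGANTCA in that of Clic1 (6.75%). Since the Clic1 window lies mostly or wholly inside the annotated gene, its matches are not shown to be upstream of that gene. The letters of NF-kB (3.9% of promoters) and of the interferon response core (2.98%) were in none of the 9 member windows. These matches describe the letters of the windows, and binding was not measured.

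On the FPKM scale, the members spanned a wide range in wild-type control BMDMs. Clic1 was highest at 189.8 ± 9.88 FPKM (SD, n = 3), above 98.7% of the tested genes, and Clic4 followed at 54.1 ± 0.804 FPKM (SD, n = 3). Among potassium channels, Kcnn4 was highest at 27.4 ± 1.51 FPKM (SD, n = 3) and Kcna3 lowest at 0.884 ± 0.0346 FPKM (SD, n = 3). Trpm2 was the lowest of the 10 at 0.871 ± 0.0916 FPKM (SD, n = 3), with libraries that overlapped those of Kcna3. The plot of member values by library shows every value used below.

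**Figure D1:**
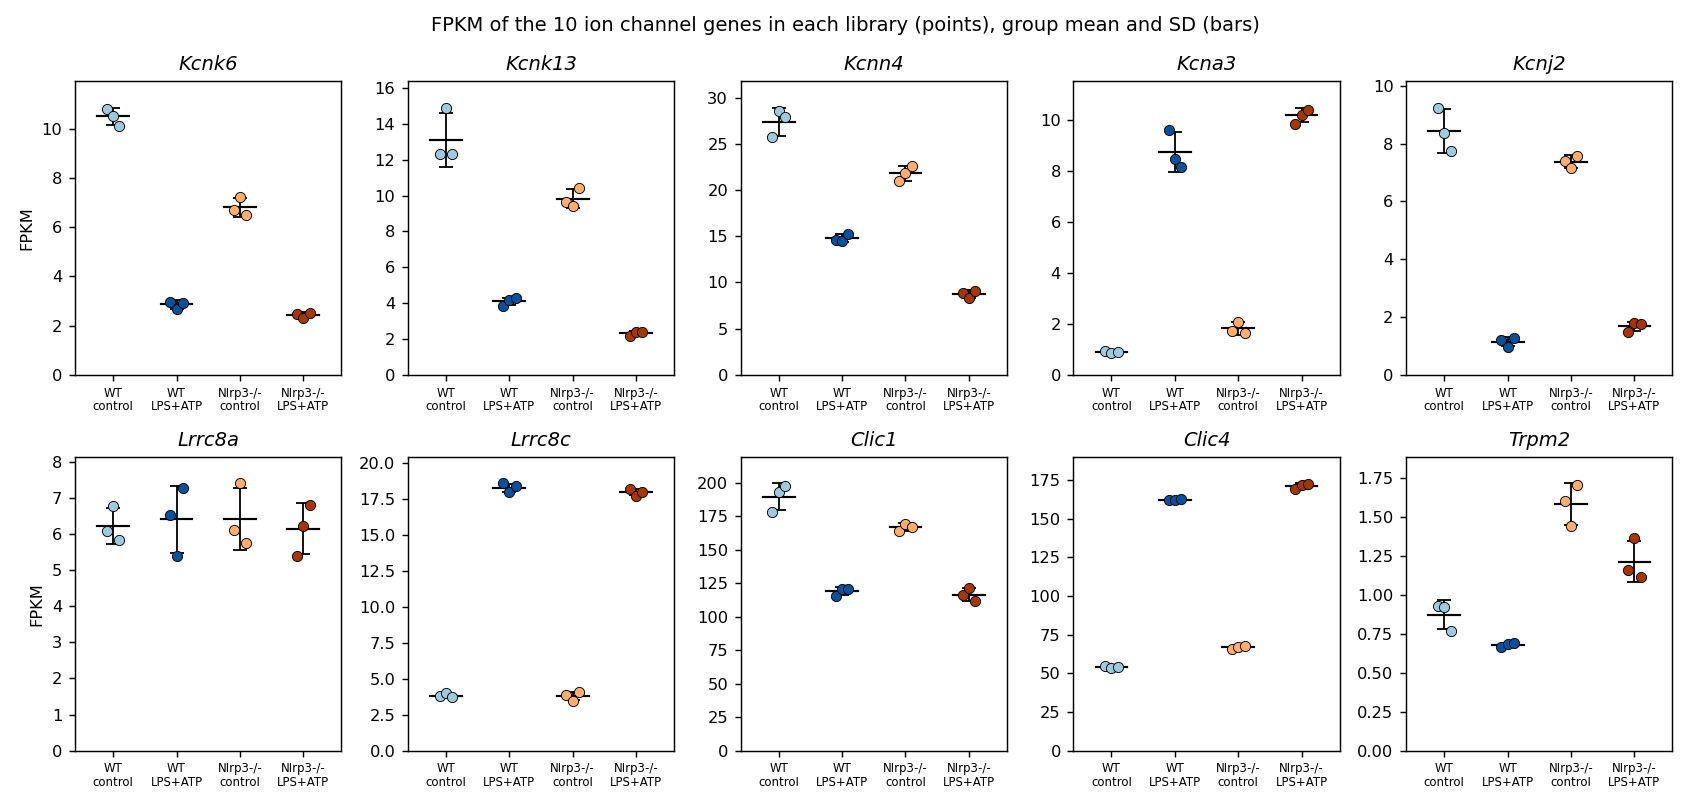
FPKM (vertical axes, linear from 0, one scale per gene) of the 10 channel genes in each of the 12 libraries by group, with points for libraries, a line for the group mean and whiskers for the SD (n = 3). Kcna3, Lrrc8c and Clic4 are higher in all LPS+ATP libraries of both genotypes, Kcnk6, Kcnk13, Kcnn4, Kcnj2 and Clic1 are lower in all of them, and the 4 groups of Lrrc8a overlap.

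Whether stimulation changes the channel transcripts was asked in each genotype. A gene was called when limma on log2(FPKM + 1) gave a Benjamini-Hochberg adjusted p under 0.05 over all tested genes together with a log2 fold change of 1 or more in size, and "rose" and "fell" are used only of called genes. On this scale the change of genes with low FPKM is understated, so ratios of mean FPKM are given too. In wild-type BMDMs, LPS+ATP raised 3 members (Kcna3, Lrrc8c and Clic4) and lowered 3 (Kcnk6, Kcnk13 and Kcnj2), while 19.4% of all tested genes were called in either direction, 8.25% higher and 11.2% lower. In Nlrp3-/- BMDMs, 7 members were called: the same 3 rose, and Kcnn4 fell besides Kcnk6, Kcnk13 and Kcnj2 (14.8% of all tested genes, 6.64% higher and 8.21% lower). By adjusted p alone, 9 of 10 members differed in wild-type BMDMs (76.4% of all tested genes), 3 higher (23.3%) and 6 lower (53.1%), and 9 of 10 in Nlrp3-/- BMDMs (74.3%), 3 higher (20.6%) and 6 lower (53.8%), shares near those of all tested genes. The groups did not overlap for 9 of 10 members in wild-type BMDMs (78.1% of all tested genes) or in Nlrp3-/- BMDMs (77.4%), the exception being Lrrc8a both times. The median log2 fold change of the members was -0.41 in wild-type and -0.37 in Nlrp3-/- BMDMs, against -0.25 and -0.24 over all tested genes. Median-ratio scaling of the libraries moved the all-gene medians by 0.24 and 0.23 and the calls higher against lower from 1041 and 1411 to 1388 and 895 in wild-type BMDMs, and from 838 and 1036 to 1091 and 598 in Nlrp3-/- BMDMs. Both stimulation comparisons kept the direction of the called members under that scaling, although Kcnk6 and Kcnn4 in Nlrp3-/- BMDMs were then at -0.93 and -0.94, under the fold limit.

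**Figure D2:**
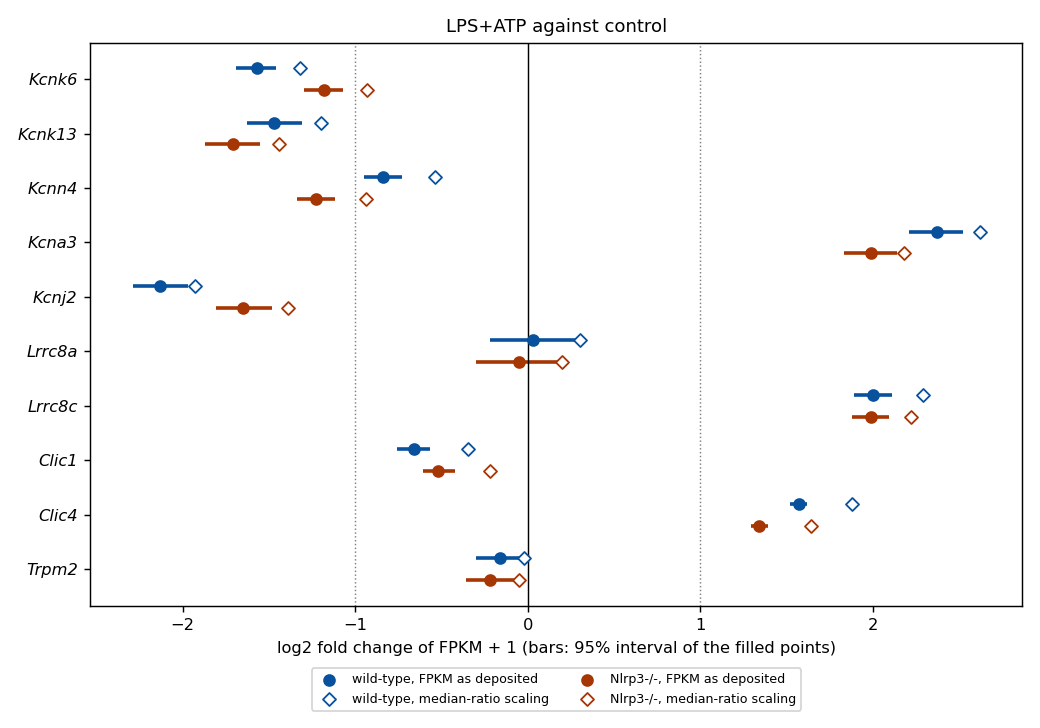
Log2 fold change of FPKM + 1 with LPS+ATP against control (horizontal axis) for each member in wild-type (blue) and Nlrp3-/- (brown) BMDMs; filled points are from FPKM as deposited with 95% intervals, open diamonds are after median-ratio scaling, and dotted lines mark the fold limit. Kcna3 (2.37 and 1.99), Lrrc8c (2.00 and 1.99) and Clic4 (1.57 and 1.34) lie beyond the limit on the right in both genotypes.

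Kcnk6 encodes TWIK2, a tandem-pore potassium channel known for carrying potassium out of macrophages after ATP. It was 10.8, 10.5 and 10.1 FPKM in the wild-type control libraries and 2.98, 2.67 and 2.92 FPKM in the wild-type LPS+ATP libraries, and 6.71, 7.21 and 6.49 FPKM against 2.47, 2.31 and 2.52 FPKM in the Nlrp3-/- libraries. All stimulated libraries were below all control libraries, and each Nlrp3-/- group was below the wild-type group of the same state. The transcript fell by 1.57 on the log2 scale in wild-type BMDMs (SE 0.05, limma adjusted p = 1.769e-10), a mean FPKM 3.66-fold lower. In Nlrp3-/- BMDMs it fell by 1.18 (SE 0.05, limma adjusted p = 3.013e-09), a mean 2.79-fold lower, and the value was -0.93 after median-ratio scaling.

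Kcnk13 encodes THIK-1, a tandem-pore potassium channel best known from microglia, where it sets the resting potassium conductance. Control libraries held 12.3, 14.9 and 12.3 FPKM in wild-type and 9.65, 9.43 and 10.4 FPKM in Nlrp3-/- BMDMs. Stimulated libraries held 3.87, 4.15 and 4.28 FPKM and 2.18, 2.38 and 2.38 FPKM. As with Kcnk6, no groups overlapped and the order was Nlrp3-/- LPS+ATP, wild-type LPS+ATP, Nlrp3-/- control and wild-type control from low to high. The log2 fold change with stimulation was -1.47 in wild-type (SE 0.07, limma adjusted p = 5.321e-09) and -1.71 in Nlrp3-/- BMDMs (SE 0.07, limma adjusted p = 1.918e-09), with means 3.21-fold and 4.24-fold lower.

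Kcnj2, the gene of an inward rectifier that holds the resting membrane potential, showed the largest drop of the 10 in wild-type BMDMs. Its FPKM went from 9.24, 8.37 and 7.73 to 1.21, 0.981 and 1.26 in wild-type libraries, and from 7.40, 7.14 and 7.57 to 1.5, 1.78 and 1.75 in Nlrp3-/- libraries. The mean was 7.35-fold lower in wild-type (log2 fold change -2.13, SE 0.07, limma adjusted p = 2.237e-10) and 4.39-fold lower in Nlrp3-/- BMDMs (-1.65, SE 0.07, limma adjusted p = 3.033e-09). Unlike the tandem-pore genes, Kcnj2 was lowest in wild-type LPS+ATP BMDMs.

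Kcnn4, which encodes a potassium channel opened by calcium through calmodulin, was 25.7, 28.6 and 27.9 FPKM in wild-type control and 14.6, 14.5 and 15.3 FPKM in wild-type LPS+ATP libraries. In Nlrp3-/- libraries it was 21.0, 21.9 and 22.6 FPKM and then 8.88, 8.28 and 9.10 FPKM. The groups did not overlap in either genotype. The wild-type difference was under the fold limit (log2 fold change -0.84, SE 0.05, limma adjusted p = 2.770e-08), and the Nlrp3-/- difference was past it (-1.23, SE 0.05, limma adjusted p = 1.405e-09). After median-ratio scaling the differences were -0.54 and -0.94, both under the fold limit.

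Kcna3, which encodes a voltage-gated potassium channel of lymphocytes and activated macrophages, went the other way. It was under 1 FPKM in every wild-type control library (0.920, 0.851 and 0.880) and 9.61, 8.46 and 8.14 FPKM after LPS+ATP. In Nlrp3-/- libraries it was 1.71, 2.09 and 1.66 FPKM and then 9.84, 10.2 and 10.4 FPKM. The mean was 9.89-fold higher in wild-type BMDMs (log2 fold change 2.37, SE 0.07, limma adjusted p = 6.240e-11), the largest log2 change of the 10 members, and 5.58-fold higher in Nlrp3-/- BMDMs (1.99, SE 0.07, limma adjusted p = 4.033e-10). The lymphocyte markers, Cd3d, Cd3e and Cd3g among them, were each under 1 FPKM in the wild-type libraries and summed to at most 0.812 FPKM. In Nlrp3-/- libraries their sum was 1.84 to 2.27 FPKM in control and 0.866 to 1.31 FPKM with LPS+ATP. The part of lymphocytes in the Kcna3 values was not tested.

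These changes altered the make-up of the potassium channel transcripts. The summed FPKM of the 5 genes was 60.3 ± 2.42 (SD, n = 3) in wild-type control and 31.6 ± 0.764 (SD, n = 3) in wild-type LPS+ATP BMDMs, and 47.7 ± 1.14 against 25.3 ± 0.709 (SD, n = 3 each) in Nlrp3-/- BMDMs. Kcna3 made up 1.47% ± 0.108 (SD, n = 3) of that sum in wild-type control and 27.6% ± 2.14 (SD, n = 3) in wild-type LPS+ATP BMDMs. In Nlrp3-/- BMDMs its share was 3.82% ± 0.501 and 40.1% ± 0.736 (SD, n = 3 each), which made it the largest of the 5 after stimulation in that genotype. Kcnn4 held 45.4%, 46.8% and 45.8% in wild-type control, wild-type LPS+ATP and Nlrp3-/- control BMDMs, and 34.6% ± 1.30 (SD, n = 3) in Nlrp3-/- LPS+ATP BMDMs. A ratio within a library is not moved by scaling the library.

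**Figure D3:**
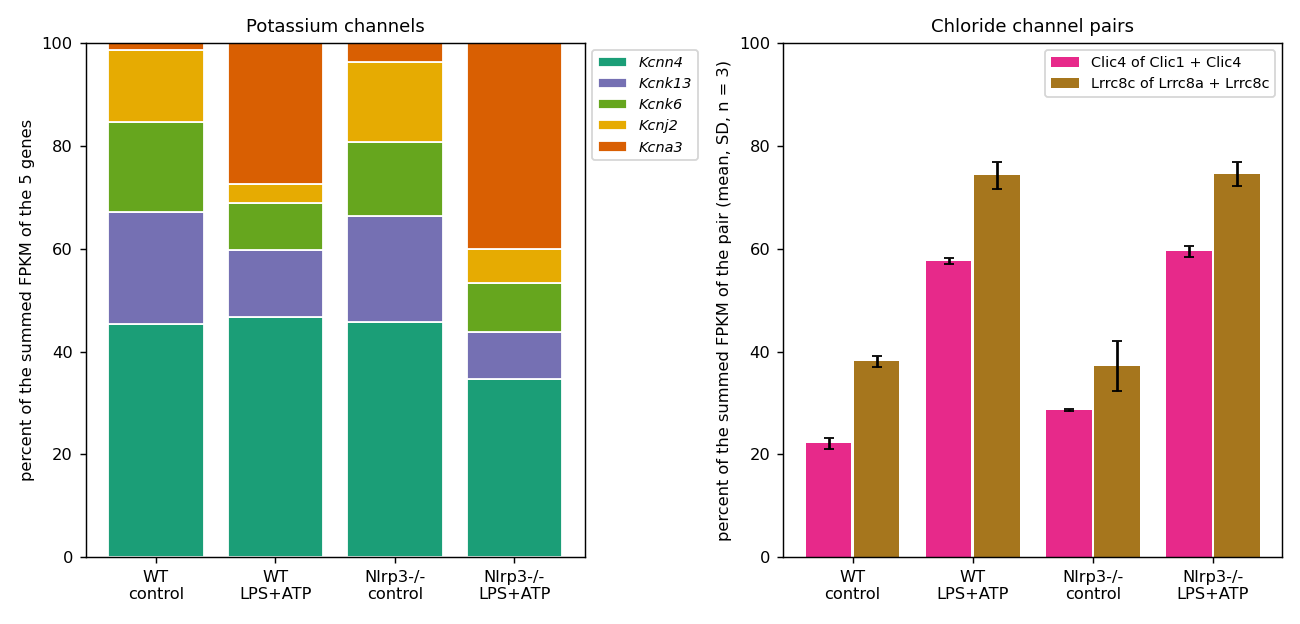
Left, mean percent of the summed FPKM of the 5 potassium channel genes held by each gene in the 4 groups (stacked bars to 100%, n = 3). Right, mean percent (SD whiskers, n = 3) of Clic4 in the sum of Clic1 and Clic4 and of Lrrc8c in the sum of Lrrc8a and Lrrc8c. The Kcna3 share is 1.47% in wild-type control against 27.6% in wild-type LPS+ATP BMDMs, and 3.82% against 40.1% in Nlrp3-/- BMDMs.

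Lrrc8a and Lrrc8c encode subunits of the volume-regulated anion channel, in which LRRC8A is the required subunit and LRRC8C is one of its partners. Lrrc8c was 3.77, 3.99 and 3.74 FPKM in wild-type control and 18.6, 18.0 and 18.4 FPKM in wild-type LPS+ATP libraries. The Nlrp3-/- libraries held 3.85, 3.46 and 4.05 FPKM in control and 18.2, 17.7 and 18.0 FPKM with LPS+ATP. The mean was 4.78-fold higher in wild-type (log2 fold change 2.00, SE 0.05, limma adjusted p = 1.042e-11) and 4.74-fold higher in Nlrp3-/- BMDMs (1.99, SE 0.05, limma adjusted p = 1.427e-11).

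Lrrc8a was 6.10, 6.79 and 5.83 FPKM in wild-type control, 6.54, 5.41 and 7.28 FPKM in wild-type LPS+ATP, 6.12, 7.41 and 5.77 FPKM in Nlrp3-/- control and 5.41, 6.24 and 6.81 FPKM in Nlrp3-/- LPS+ATP libraries. All 4 groups overlapped. The stimulation difference was 0.03 in wild-type BMDMs (95% interval -0.22 to 0.28, limma adjusted p = 0.8284) and -0.05 in Nlrp3-/- BMDMs (95% interval -0.30 to 0.19, limma adjusted p = 0.6724), while after median-ratio scaling it was 0.30 (limma adjusted p = 0.03011) and 0.20 (limma adjusted p = 0.1374). The value of Lrrc8a is uncertain, because 2853 of its exon bases (66.2% of the exon length in GENCODE M21) are shared on the same strand with Gm28035, a protein-coding model listed at up to 2.0 FPKM, so that fragments could be split between them. The sum of both was 6.97 ± 0.433 and 7.02 ± 0.785 FPKM in wild-type control and LPS+ATP BMDMs, and 7.85 ± 0.179 and 7.18 ± 0.234 FPKM in Nlrp3-/- control and LPS+ATP BMDMs (SD, n = 3 each). In the sums, the Nlrp3-/- control libraries (7.74 to 8.06 FPKM) lay above the Nlrp3-/- LPS+ATP libraries (6.91 to 7.32 FPKM), and this difference was not tested. Lrrc8c took 38.1% ± 1.04 of the Lrrc8a and Lrrc8c sum in wild-type control and 74.2% ± 2.60 in wild-type LPS+ATP BMDMs, and 37.2% ± 4.88 and 74.5% ± 2.33 in the Nlrp3-/- groups (SD, n = 3 each).

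Clic1 and Clic4 encode chloride intracellular channel proteins, which exist in soluble and membrane forms. Clic4 was 54.8, 53.2 and 54.3 FPKM in wild-type control and 161.8, 162.2 and 162.7 FPKM in wild-type LPS+ATP libraries, with 65.9, 67.1 and 67.6 FPKM and 169.5, 171.7 and 172.5 FPKM in the Nlrp3-/- libraries. All 4 groups were apart from each other. It rose 3.00-fold in mean FPKM in wild-type (log2 fold change 1.57, SE 0.02, limma adjusted p = 1.959e-13) and 2.56-fold in Nlrp3-/- BMDMs (1.34, SE 0.02, limma adjusted p = 8.427e-13). Its wild-type adjusted p was the smallest of the 10 members.

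Clic1 differed in the opposite direction, under the fold limit. Its libraries read 178.7, 193.0 and 197.7 FPKM in wild-type control and 115.9, 120.9 and 121.1 FPKM in wild-type LPS+ATP BMDMs. In Nlrp3-/- BMDMs they read 164.2, 169.7 and 167.4 FPKM and then 116.3, 121.5 and 111.8 FPKM. The log2 fold changes were -0.66 (SE 0.04, limma adjusted p = 5.002e-08) and -0.52 (SE 0.04, limma adjusted p = 5.698e-07), and -0.35 and -0.22 after median-ratio scaling. Clic4 passed Clic1 in all 6 stimulated libraries, its share of the pair being 22.2% ± 1.08 and 57.6% ± 0.545 in wild-type control and LPS+ATP BMDMs, and 28.6% ± 0.215 and 59.5% ± 1.07 in the Nlrp3-/- groups (SD, n = 3 each). The 4 chloride channel genes summed to 254.0 ± 9.47 and 306.3 ± 3.36 FPKM in wild-type control and LPS+ATP BMDMs, and to 244.2 ± 3.83 and 311.9 ± 4.58 FPKM in the Nlrp3-/- groups (SD, n = 3 each).

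Trpm2, a cation channel opened by ADP-ribose and oxidative stress, was the lowest member and was under 1 FPKM in all 6 wild-type libraries, so it passed the filter on low values only through the Nlrp3-/- libraries. Its mean was 0.871 ± 0.0916 (SD, n = 3) FPKM in wild-type control and 0.678 ± 0.0109 FPKM (SD, n = 3) in wild-type LPS+ATP BMDMs, and 1.58 ± 0.133 and 1.21 ± 0.131 FPKM (SD, n = 3 each) in the Nlrp3-/- groups. The libraries of neighbouring groups did not overlap, but the stimulation differences were small (log2 fold change -0.16, limma adjusted p = 0.04541 in wild-type, and -0.22, limma adjusted p = 0.008694 in Nlrp3-/- BMDMs). After median-ratio scaling they were -0.02 (limma adjusted p = 0.8055) and -0.05 (limma adjusted p = 0.5330). The wild-type adjusted p was between 0.0504 and 0.1211 in 8 of the 12 fits that left out a library, namely without replicates 1 or 2 of wild-type control, any of wild-type LPS+ATP, 1 or 3 of Nlrp3-/- control, or 1 of Nlrp3-/- LPS+ATP.

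Whether loss of Nlrp3 goes with other levels of these channels was asked in each state of stimulation. Neither state had a member called: 0 of 10 in control BMDMs (6.71% of all tested genes, 6.02% higher and 0.689% lower) and 0 of 10 with LPS+ATP (5.05%, 4.48% higher and 0.57% lower). By the adjusted p of limma alone, 7 members differed in control BMDMs (47.8% of all tested genes), 3 higher (33.3%) and 4 lower (14.5%), and 7 with LPS+ATP (48.5%), 4 higher (35.9%) and 3 lower (12.6%). By unadjusted p the numbers were 8, with Kcnj2 added, and 7. The higher members of both states include Trpm2, which passed the filter only through the Nlrp3-/- libraries. Of 10 members, 8 had groups that did not overlap in control BMDMs (56% of all tested genes) and 7 with LPS+ATP (57.9%). The median log2 fold change of the members was -0.09 in control and -0.03 with LPS+ATP, against 0.09 and 0.11 over all tested genes. Of all calls, 760 were higher and 87 lower in Nlrp3-/- control BMDMs, which became 571 and 146 after median-ratio scaling, and with LPS+ATP the calls were 565 and 72 and then 430 and 125. That scaling moved the all-gene medians by -0.15 and -0.17. The part of donor sex and of the macrophage, fibroblast, granulocyte, lymphocyte, erythroid and endothelial markers in the differences below was not tested.

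Of the potassium channels, Kcnk6, Kcnk13 and Kcnn4 were lower in Nlrp3-/- BMDMs in both states under both scalings. Kcnk6 had a log2 fold change of -0.56 in control BMDMs (SE 0.05, limma adjusted p = 4.498e-06) and -0.17 with LPS+ATP (SE 0.05, limma adjusted p = 0.02115). The latter had an adjusted p of 0.06267 to 0.0763 without replicate 1 or 3 of wild-type LPS+ATP or replicate 2 of Nlrp3-/- LPS+ATP. Kcnk13 was lower by -0.38 in control (SE 0.07, limma adjusted p = 0.001056) and -0.62 with LPS+ATP (SE 0.07, limma adjusted p = 2.711e-05). Kcnn4 was lower by -0.31 (SE 0.05, limma adjusted p = 3.222e-04) and -0.70 (SE 0.05, limma adjusted p = 5.569e-07), its stimulated mean being 1.69-fold lower than in wild-type BMDMs.

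The other potassium channels did not share that pattern. Kcna3 was 2.06-fold higher in Nlrp3-/- control BMDMs (log2 fold change 0.58, SE 0.07, limma adjusted p = 3.755e-05), and 0.44 after median-ratio scaling. With LPS+ATP its difference was 0.20 (limma adjusted p = 0.03648), with a median-ratio value of 0.00093, and its adjusted p was 0.05358 to 0.1314 without replicate 2 or 3 of wild-type LPS+ATP or any replicate of Nlrp3-/- LPS+ATP. Kcnj2 differed by -0.17 in control BMDMs (limma adjusted p = 0.07586; 0.03563 without replicate 3 of wild-type control), which became -0.34 after median-ratio scaling (limma adjusted p = 0.002266) and -0.23 after upper-quartile scaling (limma adjusted p = 0.02237). It was higher by 0.32 in Nlrp3-/- BMDMs with LPS+ATP (SE 0.07, limma adjusted p = 0.004001).

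Among the chloride channels, Clic4 was higher by 0.30 in Nlrp3-/- control BMDMs (SE 0.02, limma adjusted p = 7.928e-07) and 0.10 after median-ratio scaling. With LPS+ATP its difference was 0.08 (limma adjusted p = 0.01626; 0.05564 without replicate 3 of Nlrp3-/- LPS+ATP) and turned to -0.14 after median-ratio scaling (limma adjusted p = 5.312e-04). Clic1 was lower by -0.18 in control BMDMs (SE 0.04, limma adjusted p = 0.004026), and its LPS+ATP difference was -0.03 (95% interval -0.13 to 0.06, limma adjusted p = 0.5386), which became -0.25 after median-ratio scaling (limma adjusted p = 6.823e-04) and -0.15 after upper-quartile scaling (limma adjusted p = 0.0119). Lrrc8c differed by -0.02 in control BMDMs (95% interval -0.12 to 0.09) and -0.03 with LPS+ATP (95% interval -0.13 to 0.08), but after median-ratio scaling it was lower by -0.17 (limma adjusted p = 0.009466) and -0.24 (limma adjusted p = 0.001189), and with LPS+ATP by -0.14 after upper-quartile scaling (limma adjusted p = 0.02611). Lrrc8a differed by 0.03 (95% interval -0.21 to 0.28) and -0.05 (95% interval -0.30 to 0.20), the control value turning to -0.14 after median-ratio scaling. Trpm2 was 1.82-fold higher in mean FPKM in Nlrp3-/- control and 1.79-fold higher in Nlrp3-/- LPS+ATP BMDMs (log2 fold changes 0.46 and 0.40, limma adjusted p = 1.108e-04 and 3.685e-04), a comparison for which Trpm2 qualified only through its Nlrp3-/- values.

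**Figure D4:**
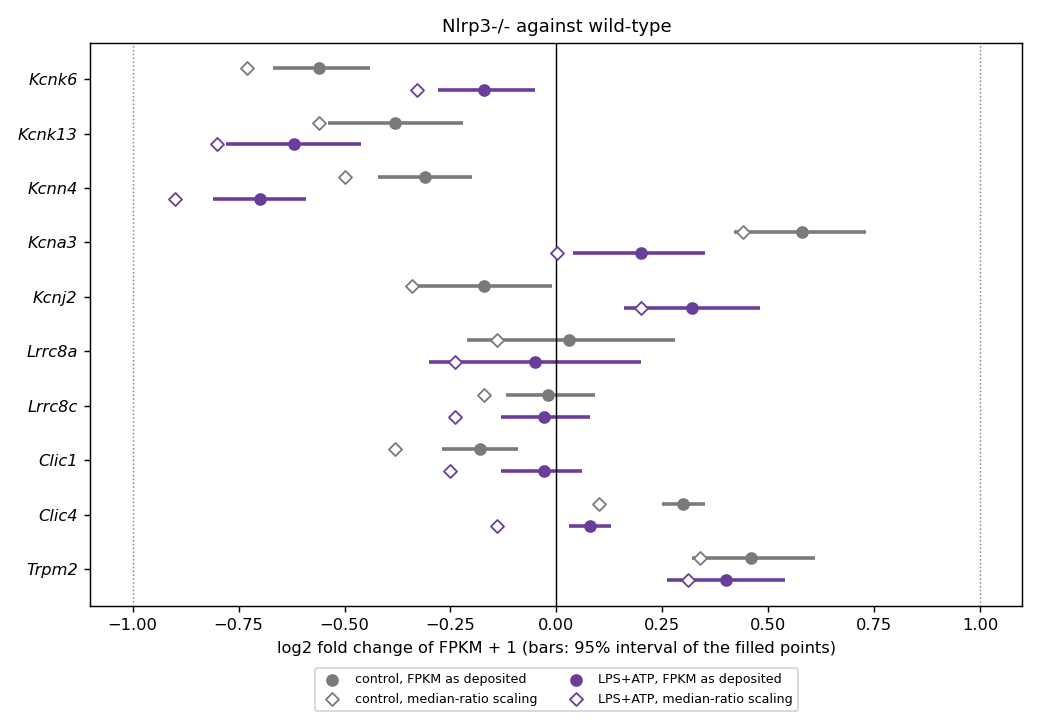
Log2 fold change of FPKM + 1 in Nlrp3-/- against wild-type BMDMs (horizontal axis) for each member in control (grey) and LPS+ATP (purple) libraries; filled points are from FPKM as deposited with 95% intervals, open diamonds are after median-ratio scaling, and dotted lines mark the fold limit. No filled point reaches the limit, and Kcnk6, Kcnk13 and Kcnn4 are to the left of 0 in both states under both scalings.

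Whether the response to stimulation itself depended on genotype was tested by the interaction term. No member was called (2.15% of all tested genes, 0.721% positive and 1.43% negative). A limma adjusted p under 0.05 was reached by 5 members (27.7% of all tested genes), 2 positive (14.7%) and 3 negative (13%), and an unadjusted p under 0.05 by 7. On the log2(FPKM + 1) scale, the drop of Kcnk6 (0.39, SE 0.07, limma adjusted p = 0.002561) and of Kcnj2 (0.49, SE 0.10, limma adjusted p = 0.004965) was smaller in Nlrp3-/- BMDMs. The drop of Kcnn4 was larger there (-0.38, SE 0.07, limma adjusted p = 0.002104). The rise of Kcna3 (-0.38, SE 0.10, limma adjusted p = 0.01509) and of Clic4 (-0.22, SE 0.03, limma adjusted p = 4.634e-04) was smaller there. Lrrc8c had an interaction of -0.01 with a 95% interval of -0.16 to 0.14, and Kcnk13 had -0.24 with an interval of -0.46 to -0.02 and a limma adjusted p of 0.1064. The Kcnk13 value was -0.39 with a pseudocount of 0.1 (limma adjusted p = 0.02994), -0.34 with TPM (limma adjusted p = 0.04778) and -0.33 without replicate 2 of wild-type control (limma adjusted p = 0.01309). Clic1 had 0.15 (limma adjusted p = 0.0911), or 0.19 without replicate 1 of wild-type control (limma adjusted p = 0.017).

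The 4 comparisons and the interaction share libraries, so their values are set side by side without a test of agreement. For each member, the genes with the most similar log2 values over the 12 libraries are given by Pearson's r as a description, since libraries of a group and state are not independent points. Kcna3 was closest to Jak2 and Ch25h (r = 0.998 each), Clic4 to Ch25h (0.999) and Lrrk2 (0.998), and Lrrc8c to Cst7 and Psmb10 (0.999 each). Kcnk6 was closest to Ahcyl2 and Kif13b (0.998 each), Kcnk13 to Adam8 (0.997) and Gm14548 (0.996), Kcnj2 to Man2a2 (0.999) and Gpd1l (0.998), and Kcnn4 to Slc6a6 (0.996) and S100a4 (0.995). Clic1 was closest to Cfp (0.995) and Klc4 (0.993), and Trpm2 to Scara3 (0.978) and Arxes2 (0.977). Lrrc8a had no close neighbour, the highest r being 0.785 for Dnaaf5 and 0.705 for Zfp335.

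Other genes of potassium and chloride transport came from 4 lists. Of 41 other potassium channel genes, only Kcnab2, Kcnj10 and Kcne3 passed the filter, the others not reaching 1 FPKM in 3 libraries. None of these 3 was called in wild-type BMDMs with stimulation, where all 3 had an adjusted p under 0.05. The wild-type count was 2 with a pseudocount of 0.1 and 1 with TPM, and the Nlrp3-/- count was 2 with either. The inward rectifier gene Kcnj10 fell by 1.23 in Nlrp3-/- BMDMs (SE 0.05, limma adjusted p = 3.109e-09), from 2.51 ± 0.0731 to 0.493 ± 0.0423 FPKM (SD, n = 3 each), and it passed the filter through the Nlrp3-/- control group. In wild-type BMDMs it had -0.63 (SE 0.05, limma adjusted p = 8.389e-07), from 0.956 ± 0.102 to 0.259 ± 0.00825 FPKM (SD, n = 3 each).

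Of 21 other chloride channel genes, 16 were tested, and with stimulation 2 rose and 3 fell in wild-type and 3 rose and 2 fell in Nlrp3-/- BMDMs. Clic5, a relative of Clic1 and Clic4, rose from 0.241 ± 0.0616 to 7.58 ± 0.165 FPKM (SD, n = 3 each) in wild-type BMDMs (log2 fold change 2.79) and had a log2 fold change of 2.41 in Nlrp3-/- BMDMs, and it passed the filter only through the LPS+ATP libraries. Clcn7, the lysosomal chloride-proton exchanger, rose from 58.4 ± 1.29 to 202.0 ± 0.572 FPKM (SD, n = 3 each) in wild-type (1.77) and by 1.86 in Nlrp3-/- BMDMs. The tweety homologues Ttyh3 (-2.05 and -1.75) and Ttyh2 (-1.85 and -1.32) fell in both genotypes. Tmem206, the proton-activated chloride channel gene also named Pacc1, fell by 1.29 in wild-type BMDMs, or by 0.99 after median-ratio scaling. The LRRC8 partner gene Lrrc8d spread widely within groups, with 5.11, 6.15 and 5.47 FPKM in wild-type control, 12.1, 13.1 and 4.82 FPKM in wild-type LPS+ATP, 0.875, 3.99 and 1.12 FPKM in Nlrp3-/- control and 5.27, 6.12 and 11.0 FPKM in Nlrp3-/- LPS+ATP libraries. It rose in Nlrp3-/- BMDMs (1.58, SE 0.41, limma adjusted p = 0.004733) and was lower in Nlrp3-/- control BMDMs (-1.28, SE 0.41, limma adjusted p = 0.02464), the latter call being lost without replicate 2 or 3 of wild-type control (-1.22 and -1.29) or replicate 1 or 3 of Nlrp3-/- control (-1.01 and -1.1), with a largest adjusted p of 0.09528.

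**Figure D5:**
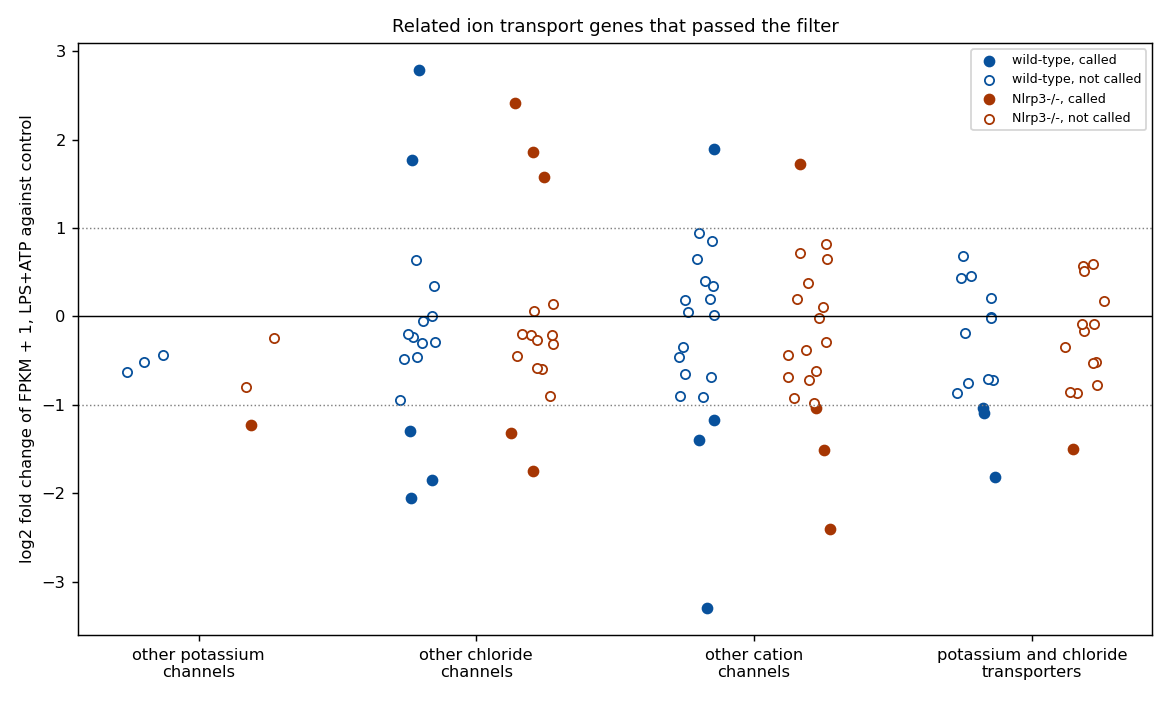
Log2 fold change of FPKM + 1 with LPS+ATP against control (vertical axis) for the tested genes of 4 related lists in wild-type (blue) and Nlrp3-/- (brown) BMDMs; filled points are called, open points are not, dotted lines mark the fold limit, and the sideways spread has no meaning. Clic5 is highest in both genotypes (2.79 and 2.41) and Tpcn1 lowest (-3.30 and -2.40).

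Of 27 other cation channel genes, 19 were tested, and 1 rose and 3 fell in each genotype. After median-ratio scaling the calls were 3 higher and 2 lower in wild-type and 2 higher and 2 lower in Nlrp3-/- BMDMs, with Panx1 (0.94, then 1.23) and Trpm4 (0.85, then 1.08) past the fold limit in wild-type BMDMs by that scaling, both named after their values were seen. A pseudocount of 0.1 gave 7 calls in Nlrp3-/- BMDMs. Orai2, a store-operated calcium channel gene, rose in both genotypes (log2 fold change 1.89 and 1.72). The endolysosomal channel gene Tpcn1 fell from 18.0 ± 0.748 to 0.938 ± 0.127 FPKM (SD, n = 3 each) in wild-type BMDMs (-3.30) and by 2.40 on the log2 scale in Nlrp3-/- BMDMs. P2rx7, the ATP-gated channel gene upstream of potassium efflux, was 12.1, 12.3 and 18.1 FPKM in wild-type control and 4.57, 5.0 and 4.43 FPKM in wild-type LPS+ATP libraries (-1.40, SE 0.12, limma adjusted p = 1.000e-06), and it fell by 1.51 in Nlrp3-/- BMDMs. Trpv4 fell in wild-type BMDMs (-1.17, or -0.97 after median-ratio scaling). P2rx1 fell in Nlrp3-/- BMDMs (-1.03, or -0.83 after median-ratio scaling and -0.94 without replicate 1 of Nlrp3-/- LPS+ATP).

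Of 18 transporter genes, 14 were tested, and 0 rose and 3 fell in wild-type, while 0 rose and 1 fell in Nlrp3-/- BMDMs. The wild-type count was 1 after median-ratio or upper-quartile scaling and 6 with a pseudocount of 0.1, and the Nlrp3-/- count was 2 with that pseudocount or with TPM. Fxyd5, a regulator of ion transport, fell by 1.03 in wild-type BMDMs, or by 0.72 after median-ratio scaling and 0.98 without replicate 3 of wild-type control. Between genotypes, the kinase gene Stk39 was higher in Nlrp3-/- control BMDMs (1.05, or 0.90 after median-ratio scaling), and it passed the filter only through the Nlrp3-/- libraries, being 0.617, 0.475 and 0.551 FPKM in wild-type control. By the rule for calls, no gene of the 4 lists was called between the genotypes with LPS+ATP.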

How the data were processed

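The authors deposited 1 table of FPKM per gene for 12 RNA-seq libraries, with no scaling between libraries stated. The submitters' processing notes name GRCm39 and DESeq2 1.24.0 without a role, and the aligner, counter and strand setting are not given in the sources used here. FPKM holds no read counts, so no count test was run and depth in reads is unknown. Genes reaching 1 FPKM in 3 libraries or more (12622 of 55335) were tested on log2(FPKM + 1), a pseudocount of 1, with limma 3.58.1 (R 4.3.3), 1 mean per group, a variance trend and two-sided tests. Per-gene intervals are from the same fit. Positions and overlaps came from GENCODE M21 (GRCm38), holding 55154 of the IDs, near copies from blastn 2.17.0+ (95% identity over 20% of the longest transcript), and promoters from RefSeq. Python 3.11.15, pandas 2.3.3 and matplotlib 3.10.9 made tables and plots.

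The members and gene lists were chosen with earlier results of these data known. Every member was named. The results of 3 genes of the related and marker lists are not reported here. In each comparison, up to 3 called genes in each direction, taken by size of change, were named from each related list, along with the 2 genes most like each member, Nlrp3 and markers. Alternatives changed the pseudocount (0.1), the filter (none, or 5 FPKM), the scaling (TPM, median-ratio, upper-quartile), the fit (replicate number as block, constant variance prior, 2 groups only), the fold limit (none) or the libraries (each left out in turn).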

Additional observations from a re-analysis of the deposited data

Results flagged for a closer look

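By the interaction term of limma (adjusted p under 0.05), the response to LPS+ATP differed between the genotypes for 5 channel genes and 1 gene of the related lists, against 27.7% of all tested genes. Kcnk6 had an interaction of 0.39 on the log2 scale (adjusted p = 0.002561 by limma), its decrease being -1.57 in wild-type and -1.18 in Nlrp3-/- BMDMs. Kcnj2 had 0.49, with decreases of -2.13 and -1.65. Kcnn4 had -0.38, with decreases of -0.84 and -1.23. The rise of Kcna3 was 2.37 in wild-type and 1.99 in Nlrp3-/- BMDMs, an interaction of -0.38, and that of Clic4 was 1.57 and 1.34, an interaction of -0.22. P2rx1, an ATP-gated channel gene, had the largest term at -1.08 (SE 0.13, adjusted p = 1.427e-04 by limma), with -0.99 when replicate 1 of Nlrp3-/- LPS+ATP was left out. It was 1.15, 0.911 and 0.962 FPKM in wild-type control, 1.14, 0.959 and 1.14 FPKM in wild-type LPS+ATP, 2.56, 2.49 and 2.50 FPKM in Nlrp3-/- control and 0.529, 0.662 and 1.02 FPKM in Nlrp3-/- LPS+ATP libraries. Donor sex and the marker sums differ between the genotypes, and their part in these 6 results was not tested.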

How the results depend on the processing

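The counts of members called by adjusted p and fold, 6 in wild-type and 7 in Nlrp3-/- BMDMs with stimulation and 0 for genotype and interaction, stayed within 1.5 times their value under every alternative run except dropping the fold limit, which gave 7, 7 and 5 members for genotype in control, genotype with LPS+ATP and the interaction. Median-ratio scaling took the stimulation calls of Kcnk6 (-0.93) and Kcnn4 (-0.94) away in Nlrp3-/- BMDMs. Over all genes, where 2452, 1874, 847, 637 and 271 were called, dropping the fold limit gave 9641, 9383, 6035, 6124 and 3494, and a pseudocount of 0.1 gave 3702, 2847, 1428, 1406 and 634. TPM gave 1285, 1175 and 501 for both genotype comparisons and the interaction, and a filter at 5 FPKM, which tests fewer genes, gave 515 for genotype in control. Leaving out 1 library gave 2407 to 2464, 1812 to 1875, 783 to 849, 620 to 639 and 247 to 276 calls. Direction turned for values near 0: Lrrc8a with stimulation in Nlrp3-/- BMDMs became 0.20 by median-ratio and 0.05 by upper-quartile scaling, Lrrc8a between genotypes in control became -0.14 and -0.03, Clic4 between genotypes with LPS+ATP became -0.14 and -0.04, and the Lrrc8c interaction became 0.01 with TPM. Leaving out a library also turned Lrrc8a in all 5 comparisons (ranges -0.06 to 0.13, -0.12 to 0.04, -0.06 to 0.10, -0.15 to 0.04 and -0.18 to 0.01) and Lrrc8c between genotypes in control (-0.06 to 0.04) and in the interaction (-0.06 to 0.03). The cause was not tested. The replicate numbers did not pair the samples, since the deviations of same-numbered libraries correlated between -0.06 and 0.05 in 18 pairs and libraries matched best with their own number in 12 of 36 cases. A replicate block gave 6 and 7 members with stimulation and 2453 and 1876 genes, and left 2 member results over the adjusted p limit, Trpm2 with stimulation in wild-type BMDMs (0.07049) and Kcna3 between genotypes with LPS+ATP (0.05318). FPKM gives no counting error, so differences of low genes such as Trpm2 are limited by a depth that is unknown.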
